A study of Mus musculus with 17 samples.

Results

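RNA levels of 10 oncofetal genes were followed in non-tumorous mouse liver: Afp, Gpc3, Golm1, Ly6d, Cd24a, Dlk1, Mdk, H19, Igf2 and Igf2bp2. Oncofetal genes are active in the fetal liver, are largely silent in the healthy adult organ and are known to return in hepatocellular carcinoma. The genes were taken by symbol, each from the 1 Ensembl identifier that carries it, and make up 10 of the 52545 genes in the table. Of the 10, 9 were among the 18624 genes with a normalized count of at least 10 in 5 or more libraries, which were tested, and Dlk1 was not.

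The libraries came from 17 male C57BL/6J mice aged 32 weeks, 1 mouse per library, in 3 groups. The 6 CLDN1 mAb mice had received 100 mg/kg of diethylnitrosamine (DEN), a liver carcinogen, in week 1, were fed CDA-HFD, a choline-deficient high-fat diet that causes steatohepatitis and fibrosis, and were injected intraperitoneally every week for 16 weeks with 500 µg of an antibody to claudin-1, which seals tight junctions between epithelial cells. The 6 Vehicle Control mice had the same DEN dose, diet and injection schedule with PBS in place of antibody. The 5 Regular diet mice had a regular diet and no treatment, so carcinogen, diet and injection all differ between them and the other groups and cannot be told apart. Mice are called below by group and the number in the sample title, vehicle mouse 4 for example.

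In fetal liver, alpha-fetoprotein (Afp) fills the place that albumin holds after birth, and Igf2, H19 and Dlk1 are imprinted genes expressed from 1 parental allele. Shortly after birth most of these genes are shut down in hepatocytes, in mouse partly through repressors such as Zhx2 and Zbtb20. Gpc3, Golm1 and Afp are known in human patients as tissue or serum markers of liver cancer, while Cd24a and Dlk1 mark progenitor or fetal liver cells.

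The values were counts normalized by the authors, and an estimated 27.7 to 59.5 M fragments stood behind each library. Regular diet mouse 1 stood apart, with a deposited total of 74.6 M against 48.2 to 51.2 M in the other Regular diet mice, and without it the counts of oncofetal genes called below were still 9 and 8. The liver label was checked on hepatocyte markers: the summed level of 11 of them was 973713 to 1620590 in CLDN1 mAb, 429634 to 1542250 in Vehicle Control and 2121180 to 3992340 in Regular diet mice. Alb, which every hepatocyte transcribes, stood at exactly 0 in each of the 17 libraries, so some zeros are failed estimates. Of 12 macrophage markers tested, 7 were higher and 2 lower in Vehicle Control than in Regular diet mice, of 12 stellate cell and fibroblast markers 9 and 0, of 10 neutrophil markers 6 and 1, of 8 erythroid markers 1 and 4, and of 11 hepatocyte markers 0 and 9. In that comparison lower hepatocyte markers were 7 with libraries scaled to the same total and 5 after quantile normalization, and lower erythroid markers 2 and 5. The hepatocyte markers did not all fall: 1 of the 2 not called had a fold change above 0. In CLDN1 mAb against Regular diet mice 1 hepatocyte marker was called higher, by 7.751 on the log2 scale, and 4 lower. These counts became 1 and 3 at the same total and 2 and 1 after quantile normalization.

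H19 and Igf2 lie next to each other on chromosome 7 of the GRCm38 (mm10) build, H19 at 142575529 to 142578143 and Igf2 at 142650766 to 142666816, both on the minus strand and 72.6 kb apart. Each hosts a microRNA, and the mature sequences, taken from RefSeq (GRCm38.p6), are shown because the host transcripts are the genes that varied most between vehicle mice. Capitals mark the seed, bases 2 to 8, and no seed is shared among the 4.
mmu-miR-675-5p: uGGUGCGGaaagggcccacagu
mmu-miR-675-3p: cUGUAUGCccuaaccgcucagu
mmu-miR-483-5p: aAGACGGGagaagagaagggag
mmu-miR-483-3p: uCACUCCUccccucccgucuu
The Mir675 and Mir483 genes have entries of their own in the table, at 0 or vanishingly near it in all libraries, so the mature microRNAs were not measured here.

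RefSeq gave promoter windows, 250 bases before to 50 bases after a transcription start, for 6 of the 10 genes. The windows of Afp (chr5:90490464-90490763, plus strand), of Gpc3 (chrX:52613925-52614224, minus strand) and the most downstream of the 4 of Igf2 (chr7:142657447-142657746, minus strand) are printed 5′ to 3′ on the gene's strand, because these genes are the classical serum marker, the surface marker and the fetal growth factor whose levels are compared below. Capitals mark matches, on either strand, to 5 searched motifs. They are the TATA box, spelled TATAAA, the AP-1 site, spelled TGANTCA, the site of TEAD factors, spelled GGAATG, the GC box, spelled GGGCGG, and the C/EBP site, spelled TTGCGCAA; no motif overlapped another in these windows.
Afp: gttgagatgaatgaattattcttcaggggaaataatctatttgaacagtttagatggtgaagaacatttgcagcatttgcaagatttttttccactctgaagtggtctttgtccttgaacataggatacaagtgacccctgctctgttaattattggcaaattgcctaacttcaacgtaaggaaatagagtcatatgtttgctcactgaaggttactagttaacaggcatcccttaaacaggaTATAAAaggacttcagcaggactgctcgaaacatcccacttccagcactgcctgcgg
Gpc3: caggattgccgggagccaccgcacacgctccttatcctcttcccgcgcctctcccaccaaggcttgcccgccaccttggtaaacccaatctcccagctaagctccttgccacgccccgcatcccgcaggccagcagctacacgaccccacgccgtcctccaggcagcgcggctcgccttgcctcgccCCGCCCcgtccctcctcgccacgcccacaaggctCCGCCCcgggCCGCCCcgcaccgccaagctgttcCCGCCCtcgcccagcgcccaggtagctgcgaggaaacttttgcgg
Igf2: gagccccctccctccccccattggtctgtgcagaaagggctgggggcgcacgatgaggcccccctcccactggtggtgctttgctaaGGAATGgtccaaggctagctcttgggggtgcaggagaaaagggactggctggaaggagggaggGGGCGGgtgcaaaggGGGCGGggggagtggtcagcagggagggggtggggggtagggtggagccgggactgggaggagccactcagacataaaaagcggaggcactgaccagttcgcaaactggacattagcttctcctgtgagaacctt
The Afp window held a TATA box, found in 13.6% of all 32851 windows, whose first base lay 30 bases before the GENCODE start. The Gpc3 window held 4 GC boxes and no other match, where 35.7% of windows held at least 1. The Igf2 window held 2 GC boxes and a GGAATG, which occurs in 14.7%. A match describes the letters only.

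Against Regular diet mice, all 9 oncofetal genes tested were higher in Vehicle Control mice, from Ly6d and H19 at the top to Igf2bp2 at the bottom, and 8 of the 9 were higher in CLDN1 mAb mice, with Igf2 short of the threshold. Among all 18624 genes tested, 29.8% were called higher and 20.7% lower in Vehicle Control than in Regular diet mice, and 24.8% higher and 14.1% lower in CLDN1 mAb than in Regular diet mice. Between CLDN1 mAb and Vehicle Control mice 0 of the 9 were called by limma, as were 0% of all genes tested, and 0 of the 9 had an unadjusted p below 0.05, as 7.47% of all genes tested did. The median log2 fold change of the 9 was 2.84 for Vehicle Control against Regular diet, where the median of all genes tested was 0.04. It was 2.17 for CLDN1 mAb against Regular diet, where that of all genes was 0.01, and -0.27 for CLDN1 mAb against Vehicle Control, where that of all genes was -0.05. All 3 comparisons share mice, so they are given side by side and not as separate support.

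**Figure D1:**
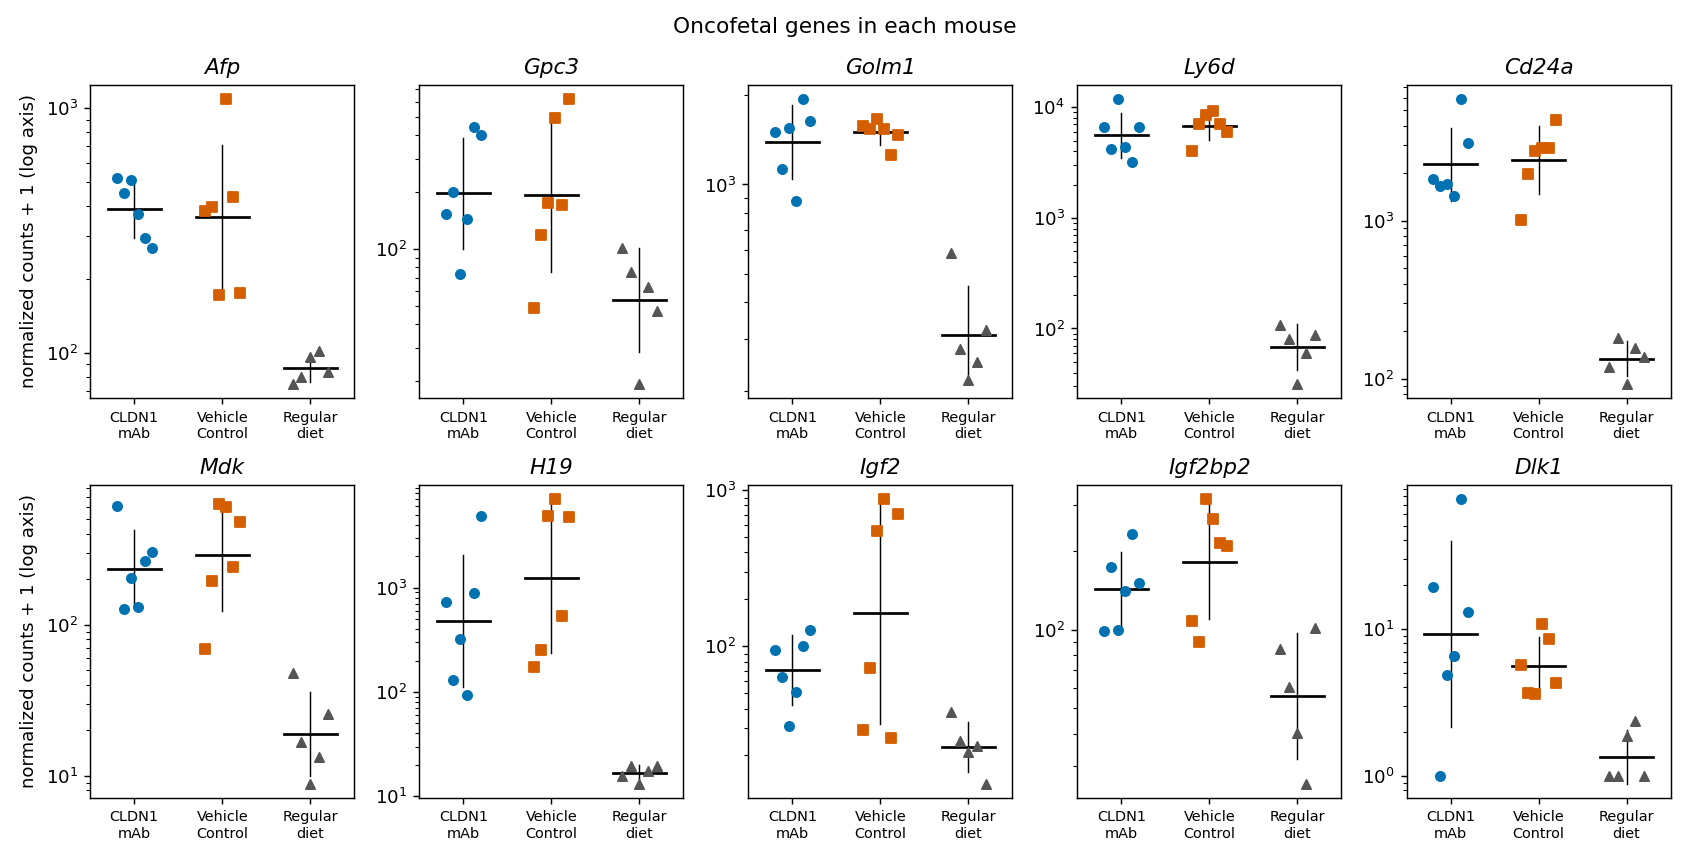
Each panel shows 1 gene, each point 1 mouse, as normalized counts + 1 on a log axis, by group; the horizontal line is the mean and the vertical line 1 SD either way, both taken on the log2 scale. CLDN1 mAb and Vehicle Control mice overlap for all 10 genes, while for Ly6d, Cd24a, Golm1, Mdk, H19 and Afp both groups lie above every Regular diet mouse.

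The ranges of Vehicle Control and Regular diet mice did not overlap for 7 of the 10 genes (all but Gpc3, Igf2 and Igf2bp2), and 19.1% of all genes tested were higher in this way. The 7 include Dlk1, which was near the floor and is not among the genes tested behind that share. Those of CLDN1 mAb and Regular diet mice did not overlap for 6 of the 10 (the same 7 without Dlk1), against 18.6% of all genes tested. CLDN1 mAb and Vehicle Control ranges overlapped for all 10; 0.0644% of all genes tested were higher and 0.258% lower without overlap.

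The secreted and serum markers were severalfold higher than in Regular diet mice. Afp, at chromosome 5 from 90490737 to 90508907, encodes the main serum protein of the fetal liver. Its normalized count was 267 at the lowest, 410 at the median and 518 at the highest in CLDN1 mAb mice, 171, 386 and 1090 in Vehicle Control mice, and 73.7, 78.7, 95.4, 100.5 and 82.5 in the 5 Regular diet mice. Every Regular diet mouse was below every other mouse, and vehicle mouse 4 stood alone at 1090, where the next vehicle mouse had 432. Vehicle Control exceeded Regular diet by a log2 fold change of 2.05 ± 0.36 (SE; limma, adjusted p = 0.000147), and CLDN1 mAb exceeded Regular diet by 2.17 ± 0.36 (adjusted p = 0.000120). Between CLDN1 mAb and Vehicle Control the difference was 0.12, with a 95% interval from -0.61 to 0.85 (adjusted p = 0.937). The 109 fragments or fewer behind each Regular diet value, 30 in Regular diet mouse 1, limit their precision. In these bulk libraries fewer cells of a type and less RNA per cell cannot be told apart, for Afp and for every gene below.

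Golm1, a Golgi membrane protein that is shed into serum, varied least between vehicle mice. Its normalized count was 877, 1531 and 1942 (lowest, median, highest) in CLDN1 mAb mice, 1257, 1541 and 1670 in Vehicle Control mice, and 585, 277, 218, 250.5 and 321 in Regular diet mice 1 to 5. The Regular diet mice lay below all others, with Regular diet mouse 1 far above the other 4. The log2 fold change was 2.28 ± 0.23 for Vehicle Control against Regular diet (limma, adjusted p = 3.06e-07) and 2.17 ± 0.23 for CLDN1 mAb against Regular diet (adjusted p = 8.04e-07). For CLDN1 mAb against Vehicle Control it was -0.11, with an interval from -0.57 to 0.35 (adjusted p = 0.899), the narrowest of the 9. Golm1 (chromosome 13, 59634626 to 59675811, minus strand) shares 1297 of its 4424 exonic bases with Naa35 on the other strand. Since the strand setting is not given in the sources used here, reads from the 2 genes cannot be told apart in that shared stretch.

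Gpc3, glypican-3 (chromosome X, 52272426 to 52613950, minus strand), is a heparan sulfate proteoglycan held on the cell surface by a lipid anchor. Its count was 73.0, 176 and 441 (lowest, median, highest) in CLDN1 mAb mice, 47.9, 172 and 620 in Vehicle Control mice, and 101, 74.8, 18.4, 61.9 and 45.8 in Regular diet mice. The groups overlapped: vehicle mouse 1 and antibody mouse 3 lay within the Regular diet range. Gpc3 was higher in Vehicle Control than in Regular diet mice by 1.86 ± 0.61 (limma, adjusted p = 0.0172) and in CLDN1 mAb than in Regular diet mice by 1.88 ± 0.61 (adjusted p = 0.0210). Between CLDN1 mAb and Vehicle Control it differed by 0.02, interval -1.20 to 1.25 (adjusted p = 0.994). Both calls against Regular diet were lost without Regular diet mouse 3, at adjusted p = 0.0577 and 0.0690, and after quantile normalization, at 0.0922 and 0.0777. The CLDN1 mAb call was also lost without antibody mouse 5 (adjusted p = 0.0506).

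Of 10 other glypicans, syndecans and sulfatases that trim their chains, 5 were higher and 3 lower in Vehicle Control than in Regular diet mice, and 4 were higher and 3 lower in CLDN1 mAb than in Regular diet mice. At the same total per library and after quantile normalization 1 was lower in CLDN1 mAb. Gpc1 had 2155 ± 416 in CLDN1 mAb, 2034 ± 711 in Vehicle Control and 343 ± 128 in Regular diet mice (SD), a log2 fold change of 2.57 for Vehicle Control against Regular diet (limma, adjusted p = 2.80e-07). Gpc2, at 90.7 ± 31.7, 132 ± 61.8 and 13.3 ± 8.52 in the same order, was higher by 3.61 (adjusted p = 0.000145). Sdc1 and Sdc4, the main syndecans of the hepatocyte surface, were lower by 1.54 and 1.23 (log2; adjusted p = 5.00e-06 and 0.000361).

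Ly6d and Cd24a are small surface proteins held by a lipid anchor, and both were far higher than in Regular diet mice. Ly6d (chromosome 15, 74762056 to 74763620, minus strand), a Ly6 family protein known in mouse as a marker of early B cell progenitors, had a count of 3187, 5444 and 11828 (lowest, median, highest) in CLDN1 mAb mice, 4055, 7023 and 9160 in Vehicle Control mice, and 106, 80.1, 30.6, 59.2 and 87.1 in Regular diet mice. The lowest CLDN1 mAb or Vehicle Control mouse was far above the highest Regular diet mouse. The ratio of mean counts was 95.6 for Vehicle Control over Regular diet and 84.5 for CLDN1 mAb over Regular diet. The log2 fold changes were 6.63 ± 0.33 (limma, adjusted p = 2.17e-10) and 6.36 ± 0.33 (adjusted p = 3.99e-10), while that of CLDN1 mAb against Vehicle Control was -0.27, interval -0.94 to 0.40 (adjusted p = 0.817). Of 12 B cell markers tested, 4 were higher in Vehicle Control than in Regular diet mice, with a median log2 fold change of 0.74; at the same total per library 10 were, and after quantile normalization 2. Their summed level was 834 to 1176 in CLDN1 mAb, 836 to 2106 in Vehicle Control and 510 to 1051 in Regular diet mice. Of the other Ly6 family genes, 8 of 8 tested were called higher in Vehicle Control and in CLDN1 mAb than in Regular diet mice. After quantile normalization 7 were in Vehicle Control and 6 in CLDN1 mAb. Ly6c2, a monocyte surface protein, had 140 ± 50.7 in CLDN1 mAb, 179 ± 78.6 in Vehicle Control and 27.3 ± 18.5 in Regular diet mice, and Lynx1 had 515 ± 118, 556 ± 236 and 76.3 ± 28.8 in the same order. Genes of this family resemble each other, and reads could be split between them.

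Cd24a (chromosome 10, 43578284 to 43584265, plus strand), a heavily glycosylated surface protein of biliary, progenitor and immature blood cells, had a count of 1424, 1776 and 5873 (lowest, median, highest) in CLDN1 mAb mice, 1006, 2813 and 4340 in Vehicle Control mice, and 118, 180, 91.9, 156 and 136 in Regular diet mice. Again no CLDN1 mAb or Vehicle Control mouse came near the Regular diet range. The log2 fold change was 4.17 ± 0.37 for Vehicle Control against Regular diet (limma, adjusted p = 6.75e-08) and 4.09 ± 0.37 for CLDN1 mAb against Regular diet (adjusted p = 1.24e-07). For CLDN1 mAb against Vehicle Control it was -0.09, interval -0.82 to 0.65 (adjusted p = 0.953). Of 2 receptors of Cd24 tested, Siglecg was called higher in Vehicle Control than in Regular diet mice, by 1.202 on the log2 scale (adjusted p = 0.00229), a call lost after quantile normalization.

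Cholangiocyte markers, like Cd24a, were higher than in Regular diet mice: 12 of 12 tested in Vehicle Control and in CLDN1 mAb, with a median log2 fold change of 3.89 and 3.81. Their summed level was 42541 to 81617 in CLDN1 mAb, 46720 to 106275 in Vehicle Control and 3756 to 5375 in Regular diet mice, where Sctr stayed below 10. By mouse this sum did not follow Cd24a throughout. Antibody mouse 5, highest for Cd24a, ranked 3 of 6 for the sum (69567). Vehicle mouse 3 had the highest sum of its group with a Cd24a count of 2752, below the 4340 of vehicle mouse 6. Cldn4 led with a log2 fold change of 5.51 for Vehicle Control against Regular diet (adjusted p = 5.63e-08). Proliferation markers were likewise higher, 12 of 12 in both comparisons, with sums of 3088 to 4765 in CLDN1 mAb, 3450 to 5826 in Vehicle Control and 495 to 893 in Regular diet mice. The part of these cells in the levels of the 10 genes was not tested.

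Dlk1, a Notch-like membrane protein of fetal hepatoblasts at chromosome 12 from 109452823 to 109463336, stayed near the floor and was not tested. Its count was 18.3, 0, 3.84, 5.56, 75.5 and 12.03 in antibody mice 1 to 6, 4.68, 2.69, 2.59, 9.85, 7.52 and 3.29 in vehicle mice 1 to 6, and 0, 0, 0.875, 1.38 and 0 in Regular diet mice 1 to 5. Antibody mouse 5 was far above the rest, and antibody mouse 2 was listed at 0, as were 3 Regular diet mice. All 6 vehicle mice exceeded all Regular diet mice, by 3 to 16 fragments against at most 1.

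Rian and Mirg, noncoding RNAs of the imprinted cluster that holds Dlk1, were more abundant. Rian had 6299 ± 1710 in CLDN1 mAb, 2918 ± 3072 in Vehicle Control and 59.1 ± 35.6 in Regular diet mice, and Mirg had 533 ± 151, 208 ± 186 and 6.69 ± 6.19 in the same order. Rian was higher than in Regular diet mice by 4.97 in Vehicle Control (log2; limma, adjusted p = 4.90e-06) and by 6.84 in CLDN1 mAb mice (adjusted p = 1.99e-07). Between CLDN1 mAb and Vehicle Control, Rian and Mirg differed by 1.86 and 1.999 on the log2 scale and were not called (adjusted p = 0.659 for each).

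Mdk, midkine (chromosome 2, 91929805 to 91932297, minus strand), is a heparin-binding growth factor of the embryo. Its count was 126, 233 and 609 (lowest, median, highest) in CLDN1 mAb mice, 67.8, 359 and 630 in Vehicle Control mice, and 46.7, 15.7, 7.88, 12.4 and 24.4 in Regular diet mice. Vehicle mouse 1, the lowest of its group, was still above Regular diet mouse 1, the highest of its own, and antibody mouse 1 stood apart at 609. The log2 fold change was 3.93 ± 0.57 for Vehicle Control against Regular diet (limma, adjusted p = 1.70e-05) and 3.63 ± 0.57 for CLDN1 mAb against Regular diet (adjusted p = 5.72e-05). For CLDN1 mAb against Vehicle Control it was -0.30, interval -1.44 to 0.83 (adjusted p = 0.884).

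Ptn, pleiotrophin, the other growth factor of the midkine family, had 53.1 ± 53.6 in CLDN1 mAb, 99.6 ± 66.3 in Vehicle Control and 3.46 ± 1.63 in Regular diet mice. It was higher in Vehicle Control than in Regular diet mice by 4.04 ± 0.71 (log2; limma, adjusted p = 0.000143). Of the 7 genes tested for pleiotrophin and the receptors of both factors, 3 were higher and 1 lower in Vehicle Control than in Regular diet mice. The integrin Itga6 was higher by 2.29 and Lrp1 lower by 0.86 (adjusted p = 5.36e-05 and 0.00992); with libraries scaled to the same total 6 were higher and 0 lower.

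H19, a long noncoding RNA, had the widest spread of the 9 genes tested among CLDN1 mAb and among Vehicle Control mice, and one of the narrowest among Regular diet mice. Its count was 728, 129, 319, 91.7, 895 and 4894 in antibody mice 1 to 6, 174, 252, 4804, 7073, 533 and 4701 in vehicle mice 1 to 6, and 14.7, 18.4, 12.3, 16.5 and 18.3 in Regular diet mice 1 to 5. All 12 mice of the DEN and CDA-HFD groups were above the Regular diet range, and within them 4 mice lay at 4701 to 7073 (vehicle mice 3, 4 and 6 and antibody mouse 6) and the other 8 at 91.7 to 895. H19 was higher in Vehicle Control than in Regular diet mice by 6.21 ± 1.03 (log2; limma, adjusted p = 7.74e-05) and in CLDN1 mAb than in Regular diet mice by 4.83 ± 1.03 (adjusted p = 0.00114). For CLDN1 mAb against Vehicle Control the difference was -1.38 ± 0.98, with an interval from -3.45 to 0.69 (adjusted p = 0.718).

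Igf2, a fetal growth factor, had a count of 93.3, 63.0, 29.97, 50.01, 99.3 and 126 in antibody mice 1 to 6, 28.1, 71.6, 547, 881, 25.1 and 701 in vehicle mice 1 to 6, and 36.8, 23.6, 20.1, 22.0 and 12.2 in Regular diet mice 1 to 5. The high values were vehicle mice 3, 4 and 6, the same mice as for H19, while the other 3 vehicle mice lay within or below the range of the antibody mice. All 6 antibody mice were below the vehicle mean of 376, yet the groups overlapped and the log2 difference of -1.21 ± 0.79 was not called (limma, interval -2.87 to 0.45, adjusted p = 0.697). Igf2 was higher in Vehicle Control than in Regular diet mice by 2.84 ± 0.83 (adjusted p = 0.00816). For CLDN1 mAb against Regular diet it stood at 1.63 ± 0.83 (adjusted p = 0.130), and fitted on those 2 groups alone, without the spread of the vehicle mice, it was called at adjusted p = 0.00442; over all settings its adjusted p ran from 0.00442 to 0.316. Gm49394, a protein-coding model on the same strand, covers 3596 exonic bases of Igf2 and has no entry in the table.

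Per kilobase of exon, the ratio of H19 to Igf2 was 4.27 to 90.4 in CLDN1 mAb, 8.17 to 49.5 in Vehicle Control and 0.931 to 3.49 in Regular diet mice. The ratio was thus above the Regular diet range in all 12 DEN and CDA-HFD mice, with antibody mouse 6 highest. The Regular diet ratios rest on few fragments, 6 to 14 for H19 and 8 to 23 for Igf2, and are imprecise. The highest of them, 3.49, came from 12 H19 and 8 Igf2 fragments in Regular diet mouse 5. It lay close to the 4.27 of antibody mouse 4, so the gap between the ranges is not firm. The Igf2 length used includes the bases shared with Gm49394.

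Igf2bp2 (chromosome 16, 22059009 to 22163299, minus strand) encodes an RNA-binding protein of the family named for its binding to IGF2 mRNA. Its count was 97.9, 144 and 231 (lowest, median, highest) in CLDN1 mAb mice, 88.6, 211 and 315 in Vehicle Control mice, and 83.5, 59.1, 39.4, 24.8 and 101 in Regular diet mice. Vehicle mouse 2 and antibody mice 1 and 3 fell within the Regular diet range. The log2 fold change was 1.71 ± 0.39 for Vehicle Control against Regular diet (limma, adjusted p = 0.00128) and 1.35 ± 0.39 for CLDN1 mAb against Regular diet (adjusted p = 0.00961), the second lost after quantile normalization (adjusted p = 0.102). For CLDN1 mAb against Vehicle Control it was -0.35, interval -1.13 to 0.42 (adjusted p = 0.793).

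**Figure D2:**
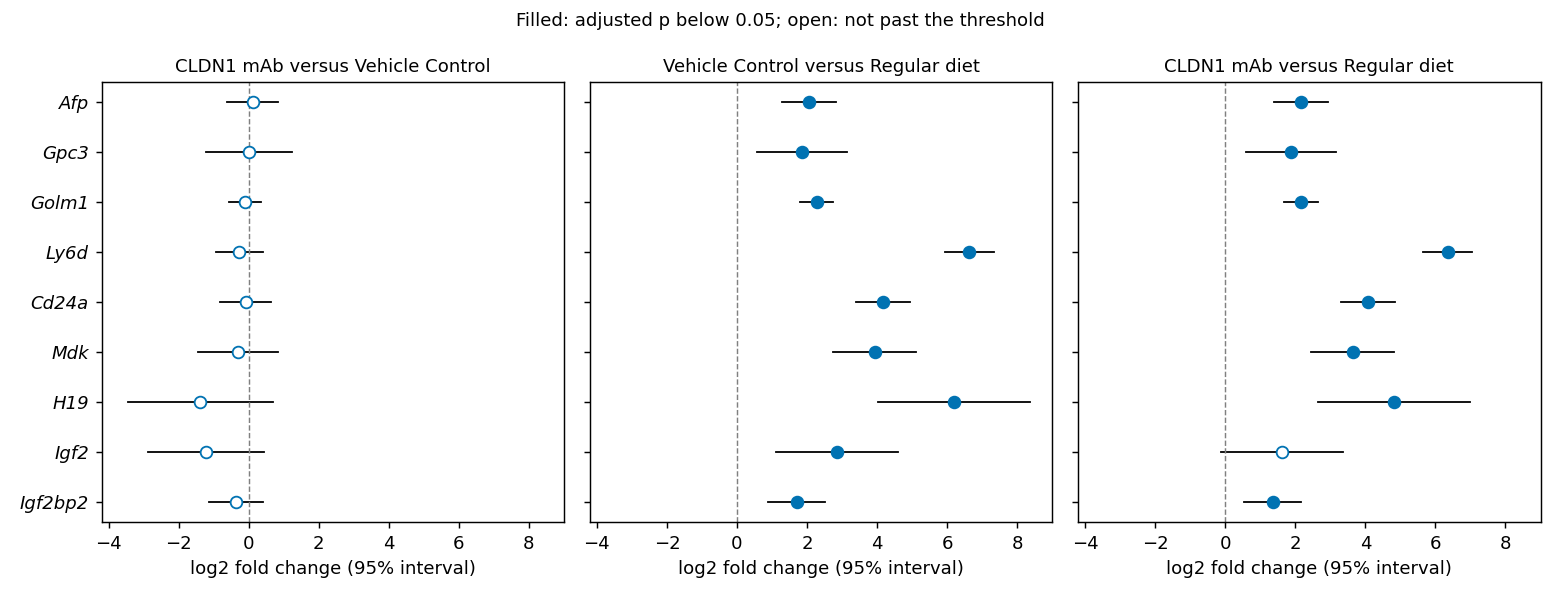
Log2 fold changes of the 9 oncofetal genes tested with 95% intervals, in 3 panels: CLDN1 mAb versus Vehicle Control, Vehicle Control versus Regular diet, and CLDN1 mAb versus Regular diet; filled circles had an adjusted p below 0.05. The left panel has no filled circle and its intervals all cross 0, widest for H19 and Igf2; in the other panels only Igf2 in CLDN1 mAb versus Regular diet is open.

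Receptors, binding proteins and the other ligand of the IGF system did not move as a block. Of 16 tested, 3 were higher and 4 lower in Vehicle Control than in Regular diet mice, and 4 were higher and 2 lower in CLDN1 mAb than in Regular diet mice. The balance turned with the scaling: at the same total per library 4 were higher and 1 lower in CLDN1 mAb, and 4 and 2 in Vehicle Control. After quantile normalization it was 4 and 0 in CLDN1 mAb, and 5 and 3 in Vehicle Control. Pappa, a protease that frees IGF from its binding proteins, had 28.3 ± 21.3 in CLDN1 mAb, 110 ± 123 in Vehicle Control and 4.65 ± 2.47 in Regular diet mice, higher by 3.38 in Vehicle Control than in Regular diet mice (log2; limma, adjusted p = 0.00189). Igfbp7 was higher by 2.37 (adjusted p = 3.31e-05). Igfals, which stabilises circulating IGF, and Ghr, the growth hormone receptor, were lower by 2.05 and 2.04 (adjusted p = 0.000219 and 9.43e-05).

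Among other imprinted genes, 9 of 21 tested were higher and 1 lower in Vehicle Control than in Regular diet mice, and 9 were higher and 5 lower in CLDN1 mAb than in Regular diet mice. With libraries scaled to the same total 11 were higher and 1 lower in CLDN1 mAb, and 12 and 1 in Vehicle Control. After quantile normalization the counts were 6 and 5 in CLDN1 mAb, and 8 and 5 in Vehicle Control. The amino acid transporter gene Slc38a4 was lower in Vehicle Control than in Regular diet mice by 1.88 (log2; adjusted p = 3.34e-05).

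Of 15 known regulators of Afp, H19 and Gpc3 tested, 2 were higher and 9 lower in Vehicle Control than in Regular diet mice, which became 3 and 2 at the same total per library and 1 and 5 after quantile normalization. In CLDN1 mAb against Regular diet 1 was higher and 6 were lower, which became 2 and 0 at the same total and 1 and 3 after quantile normalization. Zfp57, which protects imprinted methylation, was higher in Vehicle Control than in Regular diet mice by 1.42 (log2; limma, adjusted p = 0.00111), at 66.5 ± 18.7 in CLDN1 mAb, 116 ± 36.4 in Vehicle Control and 44.1 ± 17.7 in Regular diet mice. Afm, a neighbour of Afp in the albumin gene cluster, was lower in Vehicle Control than in Regular diet mice by 1.52 (adjusted p = 0.000540), opposite to Afp.

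Other genes of the fetal liver and of liver cancer were mostly higher too. Of 21 other fetal liver and liver cancer genes tested, 18 were higher and 0 lower in Vehicle Control, and 17 higher and 0 lower in CLDN1 mAb, than in Regular diet mice, with medians of 3.18 and 2.25. At the same total per library 19 and 18 were higher. After quantile normalization 15 and 13 were, with medians of 2.15 and 1.81. Igdcc4 had 352 ± 142 in CLDN1 mAb, 535 ± 303 in Vehicle Control and 11.8 ± 6.84 in Regular diet mice, and the tetraspanin Tspan8 had 1809 ± 681, 2246 ± 887 and 58.5 ± 17.6 in the same order. Of this list of 26, 5 genes were too low to test.

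Isozymes of the fetal liver were higher and their adult counterparts lower. All 7 fetal and tumour isozymes tested were higher and all 8 adult liver isozymes lower in Vehicle Control than in Regular diet mice, and 7 of 7 were higher and 6 of 8 lower in CLDN1 mAb than in Regular diet mice. With the same total per library 4 of the 8 adult isozymes were lower in CLDN1 mAb and 5 in Vehicle Control, and after quantile normalization 3 in CLDN1 mAb and 5 in Vehicle Control. Pkm, the pyruvate kinase of fetal and tumour tissue, had 4890 ± 609 in CLDN1 mAb, 6975 ± 3282 in Vehicle Control and 833 ± 223 in Regular diet mice (log2 fold change 2.92 for Vehicle Control against Regular diet, adjusted p = 1.00e-06). G6pc, the glucose-6-phosphatase of liver, had 2751 ± 793, 2986 ± 1398 and 49834 ± 26121 in the same order, a fall of 4.13 (adjusted p = 4.67e-06).

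**Figure D3:**
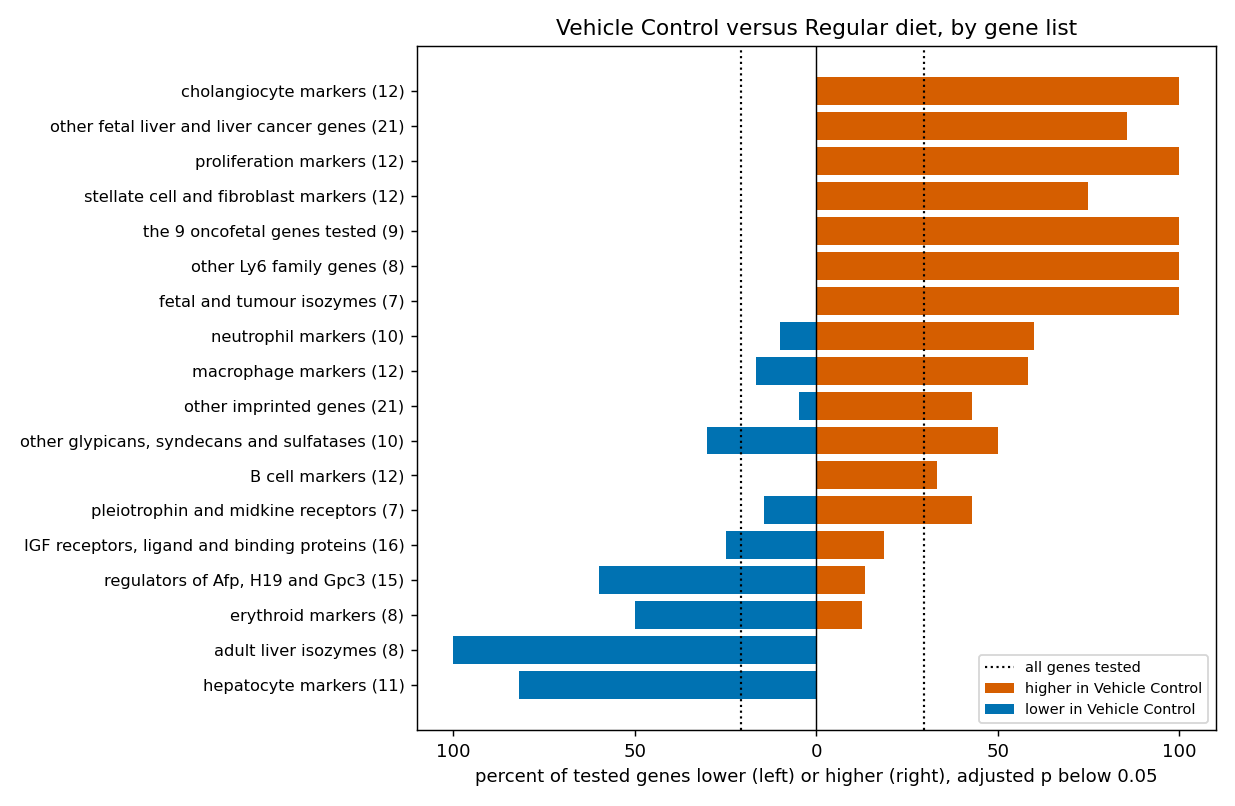
Percent of tested genes of each list, with the number tested in brackets, that were higher (right) or lower (left) in Vehicle Control than in Regular diet mice at an adjusted p below 0.05; dotted lines mark all genes tested, 29.8% higher and 20.7% lower. The 9 oncofetal genes, their Ly6 relatives, fetal isozymes, cholangiocyte and proliferation markers reach 100% higher, and adult isozymes 100% lower.

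Set per kilobase of exon, so that genes can be compared, Ly6d was the most abundant of the 10 in every group, at a mean of 8232 ± 4190 in CLDN1 mAb, 9319 ± 2442 in Vehicle Control and 97.5 ± 38.6 in Regular diet mice (SD). In Vehicle Control mice H19 (1188 ± 1210) and Cd24a (1023 ± 430) came next and did not differ beyond their spread. Golm1 (341 ± 31.5) lay below Cd24a by more than the SDs of both, followed by Mdk (278 ± 176), Afp (131 ± 100), Gpc3 (101 ± 85.4), Igf2 (65.6 ± 66.6) and Igf2bp2 (26.9 ± 11.9), each within the spread of its neighbour. In CLDN1 mAb mice Cd24a (1010 ± 662) stood above H19 (478 ± 752) and Igf2bp2 (20.004 ± 6.78) above Igf2 (13.4 ± 6.197), again within their spread. In Regular diet mice Golm1 (74.6 ± 33.3) and Cd24a (52.8 ± 13.1) came after Ly6d. The Golm1 mean lay within 1 SD of the Ly6d mean. Cd24a lay below Ly6d in each of the 5 mice, nearest in Regular diet mouse 3 (35.6 against 41.2). In Regular diet mouse 3 Golm1 (49.3) was above Ly6d (41.2). Then came Afp (25.6 ± 3.36), Gpc3 (22.4 ± 11.5), Mdk (16.2 ± 11.6) and Igf2bp2 (8.31 ± 4.21). There H19 was among the lowest, at 6.52 ± 1.06 per kilobase, above Igf2 (4.01 ± 1.56) and Dlk1.

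Whether the same mice were high for several oncofetal genes was asked over the 12 CLDN1 mAb and Vehicle Control mice, on log2 values as deviations from the group mean. Of 36 pairs of genes, 26 had a positive and 10 a negative Pearson r, with a median of 0.418. With libraries scaled to the same total 33 were positive and 3 negative, with a median of 0.626. Past the threshold on both Pearson and Spearman tests, each by permutation within groups with adjustment over the 36 pairs, were 2 pairs, Gpc3 with Cd24a and H19 with Mdk.

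Gpc3 and Cd24a had r = 0.850 and rho = 0.804 over 12 mice (permutation, adjusted p = 0.0173 and 0.0409). Without the 2 mice farthest from the median of Gpc3 r was 0.736, and centred within library codes it was 0.752; these codes, 25 to 30 and 36 to 42, each hold 3 mice of either group, and the labels do not say what they mark. Within antibody mice r was 0.809, and within vehicle mice 0.913.

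H19 and Mdk passed both tests over the 12 mice, but H19 fell in 2 separate ranges, so its r is given within the 8 mice of the lower range only, a repeat chosen after the values were seen. For Mdk r was 0.811 and rho 0.714 (exact permutation, p = 0.0222 and 0.0431), and adjusted over 8 relations the p-values were 0.0889 and 0.172. Mdk was not alone in this. Cd24a had r = 0.742 and rho = 0.810 (exact permutation, p = 0.0111 and 0.00833, adjusted 0.0889 and 0.0667). Golm1 had r = 0.735 (exact permutation, p = 0.103). For Igf2, the neighbour of H19 on chromosome 7, r was 0.321 within those 8 mice (exact permutation, p = 0.464). The 4 mice high for H19 are too few for an r of their own.

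For Afp r was negative with 7 of the other 8, from -0.33 with Cd24a to -0.06 with Mdk, and 0.28 with Ly6d, none past the threshold; with libraries scaled to the same total it was negative with 3 of the 8. Vehicle mice 3 and 6, high for H19 and Igf2, had the lowest Afp counts of all 12 (171 and 175), and vehicle mouse 4, also high for H19, had the highest.

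The count of pairs past the Pearson test, 2 as deposited, was not stable. It was 15 with libraries scaled to the same total, 4 with a pseudocount of 10 and 1 when centred on group and library code together. Without vehicle mouse 1, 2, 4 or 6 it was 0, without vehicle mouse 3 or antibody mouse 2 or 4 it was 1, without antibody mouse 1 it was 4 and without vehicle mouse 5 it was 6.

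**Figure D4:**
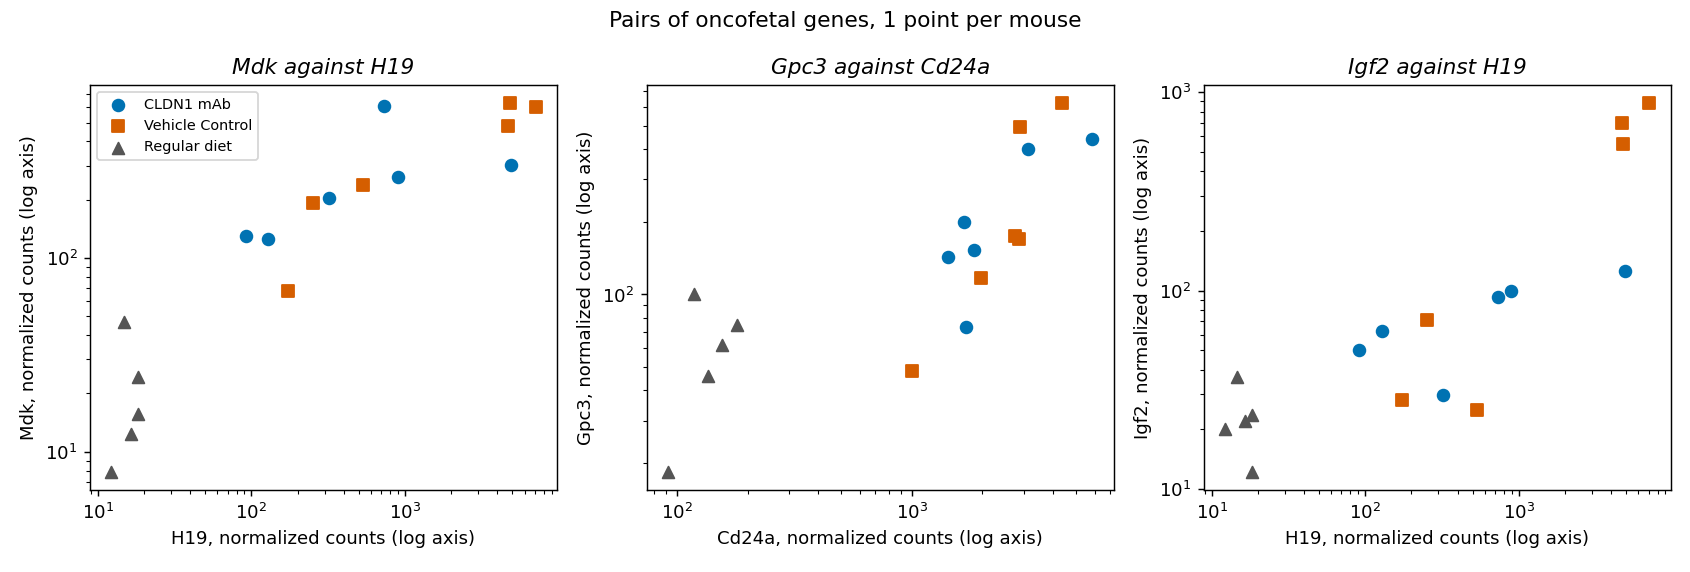
Each point is 1 mouse, normalized counts on log axes: Mdk against H19, Gpc3 against Cd24a, and Igf2 against H19, for CLDN1 mAb, Vehicle Control and Regular diet mice. Vehicle mice 3, 4 and 6 sit at the upper right for Igf2 against H19, with Igf2 at 547 to 881, apart from every other mouse.

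**Figure D5:**
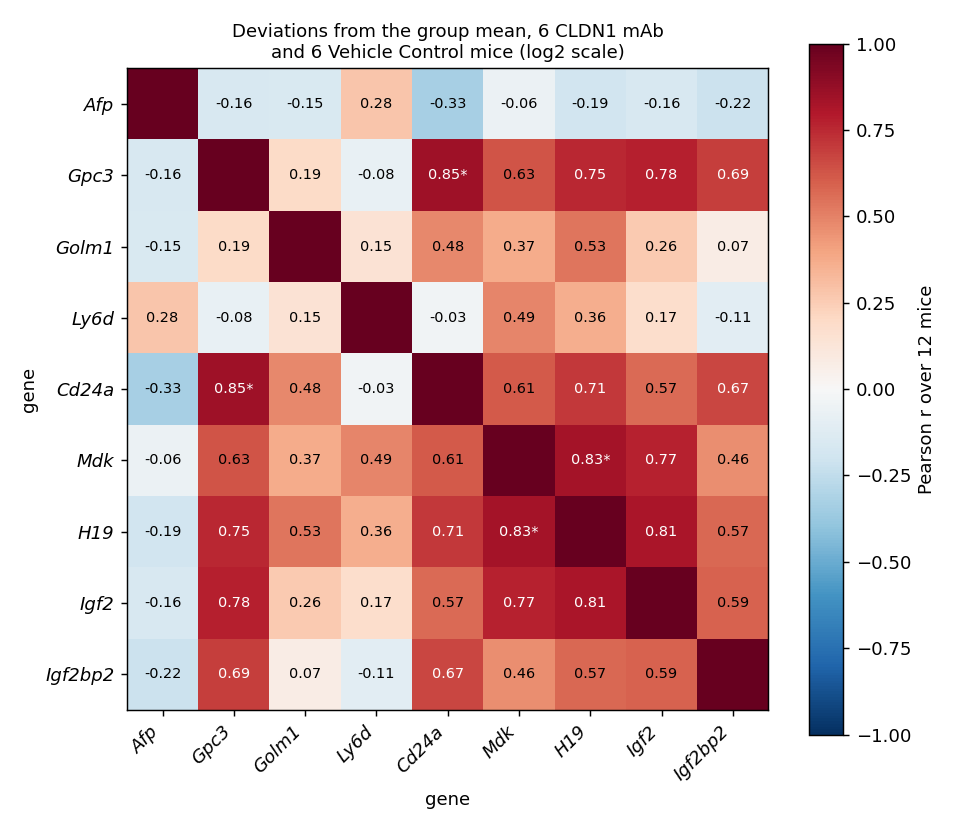
Pearson r of all 36 pairs of the 9 oncofetal genes tested over 12 CLDN1 mAb and Vehicle Control mice, as deviations from the group mean on the log2 scale; an asterisk marks the pairs past the threshold on both tests. Gpc3, Cd24a, Mdk, H19, Igf2 and Igf2bp2 form a block of positive r from 0.46 to 0.85, while pairs with Afp, Ly6d or Golm1 run from -0.33 to 0.53; values with H19 pool its 2 separate ranges. The block was picked with these r values in view, and most of its pairs did not pass both tests. Within antibody mice alone its r ran from -0.35 (Igf2bp2 with Mdk) to 0.88 (Gpc3 with Igf2). With libraries scaled to the same total, Golm1 had r from 0.49 (Igf2bp2) to 0.81 (H19) with the genes of the block.

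Some marker sums moved with the same mice. Vehicle mice 3, 4 and 6 had the 3 highest cholangiocyte sums of their group (106275, 102256 and 105085, against 46720 to 81170 in the other 3), the 3 highest macrophage sums (246523, 203626 and 243139, against 61505 to 121802) and the 3 highest stellate cell and fibroblast sums (131640, 120959 and 155232, against 39074 to 89963). They had the 3 lowest hepatocyte sums (577989, 526846 and 429634, against 1227600 to 1542250). Their B cell sums (2049, 1839 and 2106, against 836 to 1172) were the 3 highest of the group. So were their neutrophil sums (2866, 4352 and 3017, against 1299 to 1891). Proliferation and erythroid sums did not follow them. Vehicle mice 4 and 6 had the 2 lowest proliferation sums (3450 and 3864) and vehicle mouse 3 the next to highest (4775). The erythroid sum was highest in vehicle mouse 4 (14918) and lowest in vehicle mouse 6 (4070). Antibody mouse 6, the remaining mouse high for H19, had the lowest hepatocyte sum of its group (973713) and the highest stellate cell and fibroblast sum (110670). Its cholangiocyte and macrophage sums ranked 2 of 6 (73704 and 124497). By contrast its B cell sum ranked 5 of 6 (955) and its neutrophil sum was the lowest (1491). Its erythroid sum was also the lowest (4894) and its proliferation sum the highest (4765). Vehicle mice 3, 4 and 6 also had the lowest deposited totals, 29.7 to 31.3 M against 37.3 to 42.1 M, and the most estimated fragments. Their part in the levels of the oncofetal genes was not tested.

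Over mice, vehicle mouse 4 had the highest standing for the 9 genes tested, with a median rank of 2 of 12 and 7 genes for which it was among the 3 highest mice. Vehicle mouse 3 followed with a median rank of 3 and 6 genes. Vehicle mouse 1 had a median rank of 11, with 6 genes at rank 10 to 12.

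The genes whose pattern over the 12 mice was most like each oncofetal gene, among 12863 genes with a mean of at least 50, are given as a description. For H19 they were Dzip1l (r = 0.96) and the integrin Itga2 (0.95), and for Igf2 Tctn3 (0.98) and Gfpt2 (0.97). For Mdk they were Slc22a17 (0.99) and Rsph9 (0.98), for Gpc3 Hand2 and Uck2 (0.96 each), and for Cd24a Thsd4 and Ezr, the ezrin gene (0.97 each). Afp was most like Opn3 (0.90) and Cyp2d41-ps (0.84), Igf2bp2 like Mical2 (0.94) and Rin2 (0.92), Ly6d like Rnps1 (0.93) and Ing4 (0.92), and Golm1 like Zfp7 (0.88) and Inava (0.86). The points share libraries and their scaling, and each was picked as the highest r among many.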

How the data were processed

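RNA had been sequenced from 17 livers, and groups were taken from the sample titles. The authors' deposited signal is a cuffnorm table of normalized counts, as the labels name it; Cufflinks 2.2.1 and mm10 stand in the submitters' processing notes, and aligner, annotation release, strand and scaling option are not given in the sources used here. Fragments were estimated from the step between low values: 97.7 to 98.2% of values up to 20 steps lay within 0.05 of a whole step. Since not all values were whole, no count model was used.

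Genes at 10 or more in 5 or more libraries were tested on log2(value + 1), a scale that understates changes of low genes, with limma-trend (limma 3.58.1, R 4.3.3) fitting a mean for each group over the 17 libraries. P-values are two-sided, adjusted by Benjamini-Hochberg across the 18624 genes, and called at 0.05. Gene p-values in the text come from limma, and fold changes are on this scale. The code was tested on simulated data. Correlations used 100000 permutations within groups. Symbols, coordinates and exon lengths came from GENCODE M21 (99.7% of identifiers matched), motifs and sequences from RefSeq. Genes named from other lists were up to 2 per direction with the largest fold change among those called in Vehicle Control versus Regular diet with a mean of at least 50. Meg3 and Rtl1 lie outside this rule and were picked with their values in view. The genes and lists were chosen with earlier results of these data known. Some genes of the lists and 1 motif are not reported here. Alternatives are given in the closing section.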

Additional observations from a re-analysis of the deposited data

Results flagged for a closer look

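Of 30 combinations of an oncofetal gene and a group, 5 held a mouse set apart from the rest of its group by a gap that is large for its range. Chance gives about 1 in 20 where values are normally distributed, which these skewed counts need not be, and on the log2 scale 0 of the 5 gaps were large for their range. In Vehicle Control mice, Afp was 1090 in vehicle mouse 4, and 432 in the next mouse. In CLDN1 mAb mice, H19 was 4894 in antibody mouse 6 (next 895), Dlk1 was 75.5 in antibody mouse 5 (next 18.3) and Mdk was 609 in antibody mouse 1 (next 304). In Regular diet mice, Golm1 was 585 in Regular diet mouse 1 (next 321), the library with the highest deposited total. Antibody mouse 5 was also the highest of its group for Cd24a (5873), Golm1 (1942), Gpc3 (441) and Igf2bp2 (231).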

How the results depend on the processing

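The 9 oncofetal genes kept their direction in every alternative of the 2 comparisons with Regular diet, and 9 of 9 (Vehicle Control) and 8 of 9 (CLDN1 mAb) were called higher in most; quantile normalization gave 8 and 6. Leaving out 1 mouse at a time gave 8 to 9 and 7 to 8 oncofetal genes called higher, 5145 to 5951 and 4198 to 5142 of all genes higher, and 3337 to 4729 and 2144 to 3886 lower. Scaling to the same total moved all genes to 9369 higher and 1264 lower for Vehicle Control, and 7063 and 831 for CLDN1 mAb, against 5547, 3853, 4613 and 2634 as deposited, because the median log2 fold change moved to 0.65 and 0.44; after quantile normalization it was -0.13 and -0.12, with 4447 higher and 5223 lower, and 3553 and 3725. Between CLDN1 mAb and Vehicle Control limma called 0 genes in all but the fit without a filter on low values (2 lower), with 1391 genes at an unadjusted p below 0.05. Without that filter Dlk1 was called in CLDN1 mAb against Regular diet (adjusted p = 0.0161) but not in Vehicle Control against Regular diet (0.0589).

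Pairs past the Pearson test, 2 as deposited, were 15 (same total), 4 (pseudocount 10), 1 (group and library code), 0 (CLDN1 mAb mice alone), 0 (Vehicle Control mice alone, where 6 mice are few for 36 pairs) and 0 to 6 with 1 mouse left out. Differences near 0 between CLDN1 mAb and Vehicle Control changed sign, none of them called: Afp to -0.066 and Gpc3 to -0.16 at the same total, Afp to -0.50 and Gpc3 to -0.34 within library codes 36 to 42, and Ly6d to 0.15 and Mdk to 0.31 within codes 25 to 30, both chosen after seeing the data. With 1 mouse left out Afp ranged from -0.095 to 0.44, Gpc3 from -0.38 to 0.36, Golm1 from -0.20 to 0.026 and Cd24a from -0.36 to 0.083. The cause was not tested. Regular diet libraries carry codes of their own, so codes and diet cannot be told apart.

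Whether mouse numbers pair the groups could not be decided, since a cut on r is not a test. Same-numbered mice deviated together (r over 0.1) in 2 of 6, 0 of 5 and 3 of 5 pairs. The highest r was 0.656 for CLDN1 mAb with Vehicle Control, 0.022 for Vehicle Control with Regular diet and 0.586 for CLDN1 mAb with Regular diet. With the replicate number as a block, 0, 9 and 8 oncofetal genes were called in the comparisons of CLDN1 mAb with Vehicle Control, Vehicle Control with Regular diet and CLDN1 mAb with Regular diet, and 5393 higher and 3795 lower genes in the second, 4408 and 2563 in the last. Depth limits Dlk1, with at most 1 fragment in Regular diet mice, and H19 there, with 6 to 14.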

Other observations

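The 3 Vehicle Control mice with the most H19 had the least Rian and Meg3 of their group, a pattern chosen after the values were seen; among the other 3, vehicle mouse 5 was above vehicle mouse 2 for all 3 RNAs. Rian was 1487, 515 and 335 in vehicle mice 3, 4 and 6, the mice highest for H19, against 8305, 2179 and 4686 in vehicle mice 1, 2 and 5. Meg3, another noncoding RNA of the cluster, was 1870, 540 and 393 in vehicle mice 3, 4 and 6, against 6072, 2343 and 5135 in vehicle mice 1, 2 and 5. In antibody mouse 6, the antibody mouse highest for H19, Rian was 5047 and Meg3 4914, within the range of its group. Over groups, Meg3 averaged 6864 ± 1701 in CLDN1 mAb, 2726 ± 2370 in Vehicle Control and 84.0 ± 44.4 in Regular diet mice (SD, n = 6, 6 and 5). Rtl1, a protein-coding gene of the cluster, stayed at 7.22 to 23.5, 1.85 to 11.7 and 0 to 5.25 in the same order.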
